A study of Homo sapiens with 39 samples.

Results

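ICAM1, 6 chemokine genes (CXCL1, CXCL2, CXCL3, CXCL8, CXCL16 and CCL20), the NF-kB feedback inhibitors NFKBIA and TNFAIP3, and BIRC3 were followed by RNA-seq in HCT116 cells, a human colorectal cancer line, that expressed single isoforms of the nuclear receptor HNF4A. These 10 genes were taken by name from the 45435 gene rows of the deposited tables. They had been chosen with their levels in these libraries known, so their values are given as a description and carry no p-value. The 39 libraries formed 13 groups of 3. Parental cells were the Flp-In T-REx hosts, with no construct. The remaining 12 groups were stable lines, 1 per isoform, each with 1 insertion of human HNF4A isoform 1 to 12 carrying a C-terminal GFP tag and induced by doxycycline. All groups, parental cells included, received 2.5 µg/ml doxycycline for 48 h, and selection antibiotics were taken away at induction. Before that, the parental cells were kept in blasticidin S and zeocin and the lines in blasticidin S and hygromycin B. As there was 1 line per isoform and no line with GFP alone, the isoform, GFP, the derivation of a line and the earlier antibiotics cannot be told apart. The labels do not say that the libraries of a group came from separate cultures, so every p-value below measures only the spread between these libraries.

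By the numbering in general use, which the labels do not spell out, isoforms 1 to 6 start from the P1 promoter and isoforms 7 to 12 from the P2 promoter. Isoforms 4 to 6 carry exon 1B. Isoforms 2, 5, 8 and 11 have a short insertion in the C-terminal F domain, and isoforms 3, 6, 9 and 12 have a shortened C-terminus.

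NF-kB is a family of dimeric transcription factors that inhibitory IkB proteins hold in the cytoplasm until TNF, interleukins or microbial products activate the IkB kinase. Freed NF-kB binds kappaB sites and switches on chemokines, adhesion receptors and its own inhibitors. In the gut epithelium, ICAM1 binds leukocyte beta-2 integrins, CXCL1, CXCL2, CXCL3 and CXCL8 attract neutrophils through CXCR2, CCL20 attracts lymphocytes and dendritic cells through CCR6, and CXCL16 is a membrane-bound ligand of CXCR6. NFKBIA (IkB alpha) and TNFAIP3 (A20) close the feedback loop, and BIRC3 is a ubiquitin ligase of the TNF receptor complex.

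Promoter sequences are shown first because a kappaB site is the feature that places most of these genes among NF-kB targets. Of the 10 genes, 9 were found in the RefSeq promoter table (build GRCh38.p14, 250 bases before to 50 after each start), all but CXCL16. The kappaB core was searched as GGAANTTCC, a palindrome, and as the looser GGAANNNCC, which contains the first, on both strands. GGAANTTCC was found in 6 of the 9 promoters (ICAM1, CXCL1, CXCL2, CXCL3, CXCL8 and NFKBIA) and in 1.0% of all 34796 promoters searched. GGAANNNCC was found in all 9, and in 20.0% of all promoters. In ICAM1 the match lay between bases -186 and -178 from the start. The 250 bases before the ICAM1 start, and windows of 60 bases in the other 8 genes, are written 5′ to 3′ on the strand of the gene. Each window was placed on the GGAANTTCC match or, in genes without it, on the GGAANNNCC match nearest the start. Capitals mark every match to GGAANNNCC on either strand within the stretch shown.
ICAM1 chr19:10270870-10271119 plus strand: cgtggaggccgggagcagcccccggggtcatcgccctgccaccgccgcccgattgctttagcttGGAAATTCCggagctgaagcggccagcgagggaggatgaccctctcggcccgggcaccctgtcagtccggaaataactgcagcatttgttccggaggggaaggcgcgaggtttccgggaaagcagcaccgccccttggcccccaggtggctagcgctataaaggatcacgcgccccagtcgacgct
CXCL1 chr4:73869290-73869349 plus strand: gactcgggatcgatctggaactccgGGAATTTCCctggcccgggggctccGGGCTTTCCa
CXCL2 chr4:74099238-74099297 minus strand: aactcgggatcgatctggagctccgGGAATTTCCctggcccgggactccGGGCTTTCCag
CXCL3 chr4:74038733-74038792 minus strand: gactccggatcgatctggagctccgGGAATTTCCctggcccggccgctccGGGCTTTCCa
CXCL8 chr4:73740453-73740512 plus strand: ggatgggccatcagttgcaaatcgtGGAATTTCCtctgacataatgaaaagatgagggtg
CCL20 chr2:227813738-227813797 plus strand: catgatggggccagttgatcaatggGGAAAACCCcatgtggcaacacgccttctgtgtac
NFKBIA chr14:35404796-35404855 minus strand: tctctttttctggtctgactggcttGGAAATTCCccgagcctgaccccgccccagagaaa
TNFAIP3 chr6:137867179-137867238 plus strand: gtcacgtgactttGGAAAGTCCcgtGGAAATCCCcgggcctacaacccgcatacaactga
BIRC3 chr11:102317260-102317319 plus strand: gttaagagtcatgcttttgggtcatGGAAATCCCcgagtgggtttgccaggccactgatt

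CXCL1, CXCL2 and CXCL3, neighbouring paralogs on chromosome 4, each held the core and, closer to the start site, a looser match on the other strand. Their windows were compared base by base without gaps. They agreed at 56 of 60 bases between CXCL1 and CXCL3 and at 48 of 60 between CXCL1 and CXCL2. In CXCL2 the core began at -77 and in CXCL1 and CXCL3 at -78, while the looser match began at -53 in each. Part of the CXCL2 window after the core was thus out of step, which lowers its count. TNFAIP3 held a pair of looser matches at -67 to -59 and -55 to -47. NFKBIA held another looser match on the opposite strand at -242 to -234, outside its window above. The HNF4 motif CAAAGTCCA was in none of the 9 windows and in 0.4% of all promoters. Its looser form CAAAGNNCA was found in CCL20 alone, on the opposite strand at -236 to -228, and in 5.3% of all promoters. A match describes the letters only, and a missing match says only that these letters are not in this window.

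HNF4A was measured at 30.8 to 31.9 TPM (the share of transcripts in a library, corrected for transcript length) in the parental libraries and at 407 to 1110 TPM in the libraries of the lines. It was called higher in all 12 lines. Isoform 3 replicate 1 stood apart with 407 TPM of HNF4A against 833 and 772 in the other libraries of that line. EPCAM, the defining epithelial marker, stood at 433 to 624 TPM, and 8 of 9 epithelial markers passed 1 TPM in at least 1 library. Of these, KRT20 and VIL1 averaged only 0.952 and 0.554 TPM in parental cells, and VIL1 was called higher in 9 lines. PTPRC, which marks leukocytes, did not exceed 0.296 TPM. Of the 9 leukocyte markers, CD68 and CORO1A passed 1 TPM, and the list summed to 8.17 to 10.9 TPM in parental libraries and 11.6 to 37.3 TPM in those of the lines. CD68 had a mean of 3.85 TPM in parental cells and 33.0 TPM in isoform 1, and was called higher in 9 lines. CORO1A was called lower in 2 lines. Counting depth per library is not recoverable from TPM. A gene was called at a limma adjusted p under 0.05 and an absolute log2 difference of at least 1 on the log2(TPM + 1) scale, a scale that understates the change of low genes, among 15003 genes that averaged 1 TPM or more. ICAM1, CXCL16, NFKBIA, TNFAIP3 and BIRC3 passed that minimum. CXCL1, CXCL2, CXCL3, CXCL8 and CCL20 did not and carry no call. All 12 comparisons share the same 3 parental libraries.

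ICAM1 varied most of the 5 genes above the minimum. Group means ran from 0.34 TPM in the isoform 2 line to 15.6 TPM in the isoform 4 line, a span of 45.9-fold. In parental cells ICAM1 stood at 5.89, 6.68 and 5.8 TPM. The gene lies on chromosome 19 (chr19:10270835-10286615, plus strand, GRCh38, GENCODE). The RefSeq start used for its promoter lies inside these bounds, so the motif positions are not counted from the GENCODE start. As these are bulk libraries, fewer cells with the transcript and less transcript per cell cannot be told apart.

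The highest ICAM1 level was that of the isoform 4 line, at 15.2, 16.8 and 14.7 TPM. All of these libraries lay above all parental ones, 2.54-fold higher in the mean, with a log2 difference of 1.22 ± 0.171 (SE, n = 3 against 3, as for every log2 difference below). The isoform 2 line held the lowest values, 0.377, 0.302 and 0.342 TPM. They lay 18-fold under the parental mean, at a log2 difference of -2.41 ± 0.171. The isoform 5 line followed with 0.839, 0.58 and 0.533 TPM, 9.41-fold under the parental mean and -2.11 ± 0.171 on the log2 scale. No library of either line came near the parental range, and the lines for isoforms 2 and 5 did not overlap each other.

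Isoform 3 gave a split group, with 3.99 TPM in replicate 1 against 1.12 and 1.08 TPM in the others. Replicate 1 is the library with the lowest HNF4A among the lines, and its part in that value was not tested. All 3 were below the parental range. The log2 difference was -1.34 with all 3 libraries and -1.76 without replicate 1, and the mean moved from 2.06 to 1.10 TPM. Because the fit pools the spread of all groups, this library also widens the SE of 0.171 given for ICAM1 in every line.

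In the isoform 6 line ICAM1 stood at 2.01, 1.99 and 1.7 TPM (log2 difference -1.30). In the isoform 12 line it stood at 2.27, 2.2 and 2.01 TPM (-1.17). Both groups were tight and lay entirely under the parental one. The isoform 10 line, at 2.77, 2.75 and 3.06 TPM, was lower by 0.88 on the log2 scale, short of a call.

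Values nearer to the parental level were found in the remaining lines. Isoform 11 had 3.42, 3.41 and 3.09 TPM (-0.72), and isoform 8 had 3.85, 3.89 and 4.0 TPM (-0.53). Isoform 1 had 4.46, 3.96 and 4.45 TPM (-0.43), and isoform 7 had 3.93, 5.15 and 4.27 TPM (-0.39). These 4 groups were each below every parental library. Isoform 9, at 5.76, 5.89 and 5.79 TPM (-0.06), was the only line whose ICAM1 overlapped the parental libraries, although each of its libraries was below the parental one of the same number.

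**Figure D1:**
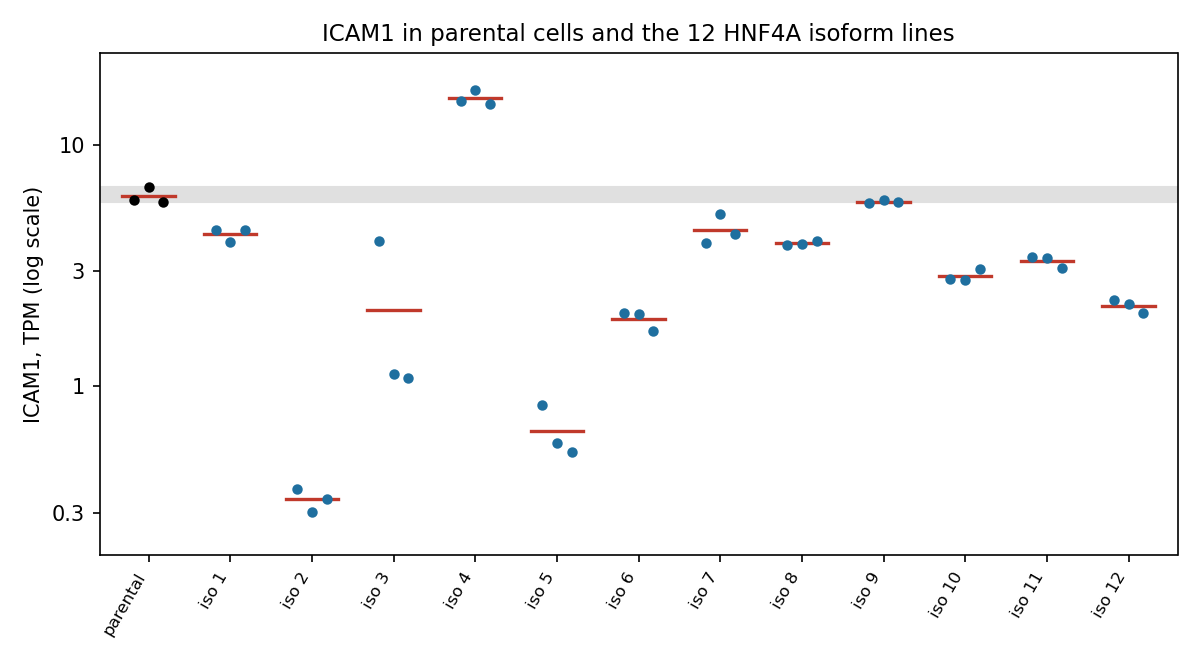
ICAM1 in TPM on a log axis for the 3 libraries of each group (points) with the group mean (red line) and the parental range (grey band). Isoform 4 lies above the band at 14.7 to 16.8 TPM, isoform 9 touches it, and the other 10 lines lie below it, down to 0.302 TPM in isoform 2.

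Ordered by mean, ICAM1 ran from isoform 4 through parental cells, isoforms 9, 7, 1, 8, 11, 10, 12, 3, 6 and 5 to isoform 2. Neighbours in this order whose libraries overlapped were parental and 9, 7 and 1, 1 and 8, 12 and 3, and 3 and 6. Every other neighbouring pair was separated. The place of isoform 3 rests on its replicate 1, without which it ranked between isoforms 6 and 5 and overlapped neither. Among lines that differ by the F-domain insertion, isoform 2 was 12.6-fold lower than isoform 1 and isoform 5 was 23.9-fold lower than isoform 4, with no overlap. In P2 forms the same change went with small gaps, since isoforms 8 and 7 overlapped and isoform 11 was 1.16-fold above isoform 10. For the shortened C-terminus, isoform 6 was 8.2-fold lower than isoform 4, isoform 9 was 1.31-fold above isoform 7, and isoform 12 was 1.32-fold below isoform 10. Isoform 3 was 2.08-fold below isoform 1 with overlap, and 3.91-fold below it with none when replicate 1 of isoform 3 was left out. These differences between lines were not tested, because ICAM1 was chosen with its levels across lines known.

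ICAM1 was called higher in the isoform 4 line, where 0.227% of all tested genes were called higher. It was called lower in the lines for isoforms 2 (1.37% of all tested genes called lower), 3 (0.153%), 5 (0.14%), 6 (0.153%) and 12 (0.133%). Over the 12 lines, the 5 tested genes made 60 pairs of gene and line, with 1 call higher and 5 lower, all of ICAM1. Over all tested genes, 0.94% of pairs were called higher and 0.574% lower. Since the genes were picked on these contrasts, nothing is read from the counts. In the authors' deposited table the log2 fold change of ICAM1 ran from -3.78 in isoform 2 to 1.29 in isoform 4, over mean normalised counts of 351 to 1220. These values are not on the log2(TPM + 1) scale.

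Genes that flank ICAM1 were looked at after its values were seen. Within 100 kb on each side, 8 genes were tested, among them its relatives ICAM3 and ICAM5, the kinase gene TYK2 and the DNA methyltransferase gene DNMT1. None was called in any line by limma. Of 96 pairs of gene and line, 40 had an unadjusted p under 0.05 and 29 an adjusted one. The log2 differences of these 8 genes ran from -0.62 to 0.25. In the isoform 4 line they ran from -0.32 to 0.07, beside 1.22 for ICAM1. In isoform 5 they ran from -0.22 to 0.12, beside -2.11. In isoform 2 all 8 were negative, from -0.62 for ZGLP1 to -0.01 for S1PR2, beside -2.41. ICAM3, another ligand of beta-2 integrins, ranged from 11.1 to 14.5 TPM in the lines and stood at 12.0 TPM in parental cells. GENCODE places antisense genes, AC011511.2 and AC011511.5, across ICAM1. Of the 31-base words of ICAM1 transcripts, 23.8% also occur in another gene, mostly these. The library kit kept strand, and whether strand was used in counting is not given in the sources used here, so the ICAM1 value is uncertain to that extent.

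**Figure D2:**
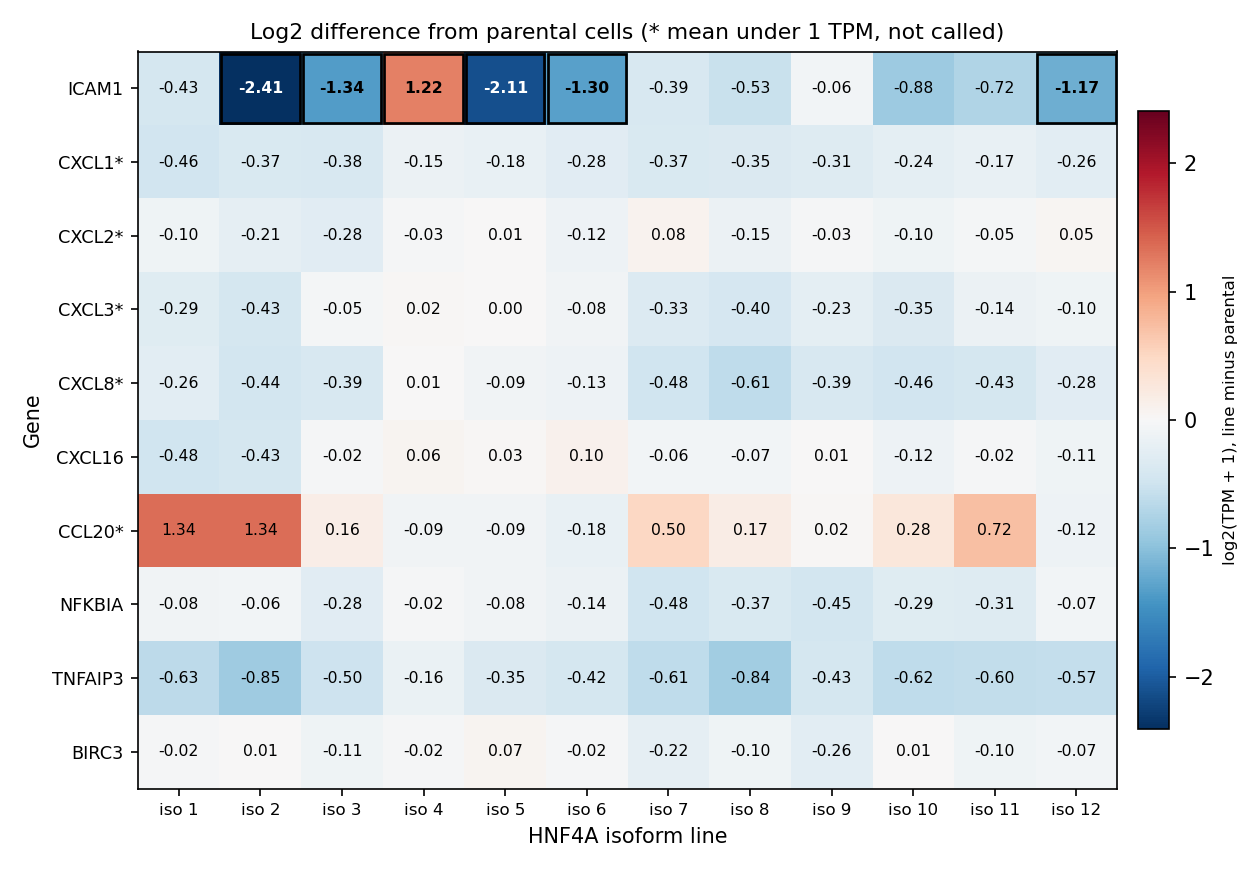
Log2 difference of each line from parental cells, on the log2(TPM + 1) scale, for the 10 genes (rows) and 12 lines (columns), with called values boxed and genes under a mean of 1 TPM starred. ICAM1 holds all 6 calls, TNFAIP3 is negative in every column (-0.85 to -0.16), and CCL20 is highest in isoforms 1 and 2 at 1.34.

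The neutrophil chemokines were barely expressed. CXCL1 reached at most 0.764 TPM, CXCL2 0.562, CXCL3 1.01 and CXCL8 1.78 TPM in any library. In the authors' deposited table their mean normalised counts were 9.51 to 13.3 for CXCL1, 8.42 to 12.0 for CXCL2, 15.5 to 23.0 for CXCL3 and 26.4 to 41.3 for CXCL8. Differences at this level rest on few reads.

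CXCL8 (interleukin-8) stood at 0.944, 1.23 and 1.5 TPM in parental cells. Its lowest group was the isoform 8 line, at 0.501, 0.485 and 0.357 TPM, with a log2 difference of -0.61 ± 0.143. In 7 lines (isoforms 2, 3, 7, 8, 9, 10 and 12) every library was below every parental one, and in the other 5 the groups overlapped. The exon 1B lines stayed nearest to parental cells, with means of 1.26, 1.08 and 1.05 TPM for isoforms 4, 5 and 6 against 1.22 TPM.

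CXCL1 stood at 0.764, 0.477 and 0.471 TPM in parental cells and was lowest in the isoform 1 line, at 0.319, 0.0355 and 0.0857 TPM. Its libraries lay below all parental ones in 9 lines and overlapped them in isoforms 4, 10 and 11. CXCL2 stood at 0.376, 0.509 and 0.327 TPM in parental cells and overlapped them in 11 lines, with isoform 3 below at 0.183, 0.15 and 0.142 TPM. CXCL3 stood at 0.927, 1.01 and 0.502 TPM and also overlapped in 11 lines, with isoform 2 below at 0.337, 0.251 and 0.416 TPM. CXCL1, CXCL2 and CXCL3 share 14.4%, 22.5% and 9.54% of their 31-base transcript words with other genes, chiefly each other, so reads may be divided among them uncertainly. Their sum, which such a division leaves as it is, was 2.07, 2.0 and 1.3 TPM in parental libraries. It was below the parental range in 3 lines, isoform 2 (mean 0.768 TPM), isoform 7 (1.14 TPM) and isoform 8 (0.886 TPM), and overlapped it in 9.

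CCL20 went the other way. It stood at 0.0695, 0.355 and 0.0781 TPM in parental cells. In the isoform 1 line it was 2.68, 1.48 and 1.79 TPM, 11.8-fold above the parental mean (log2 difference 1.34 ± 0.142). In the isoform 2 line it was 2.55, 1.8 and 1.54 TPM, 11.7-fold above (1.34 ± 0.142). Parental replicate 2, at 0.355 TPM, carries most of the parental mean, and without it these folds were 26.9 and 26.6. These libraries held the highest CCL20 values of the series. Isoform 11 had 1.17, 1.17 and 0.485 TPM, isoform 7 had 0.648, 0.438 and 0.848 TPM, and isoform 10 had 0.482, 0.361 and 0.397 TPM. In these 5 lines every library exceeded every parental one. In the exon 1B lines CCL20 was listed at 0 in 4 libraries and reached at most 0.206 TPM. The other lines overlapped the parental group. In the authors' deposited table the mean normalised counts of CCL20 were only 1.33 to 16.9, and the log2 fold changes ran from -0.03 to 1.93. The 1.93 was that of isoform 1, where the TPM means differed 11.8-fold, so the authors' fold changes and the TPM folds are unlike measures. As CCL20 averaged 0.552 TPM over the 39 libraries it was not tested. Without the minimum it would add 2 calls, in isoforms 1 and 2.

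**Figure D3:**
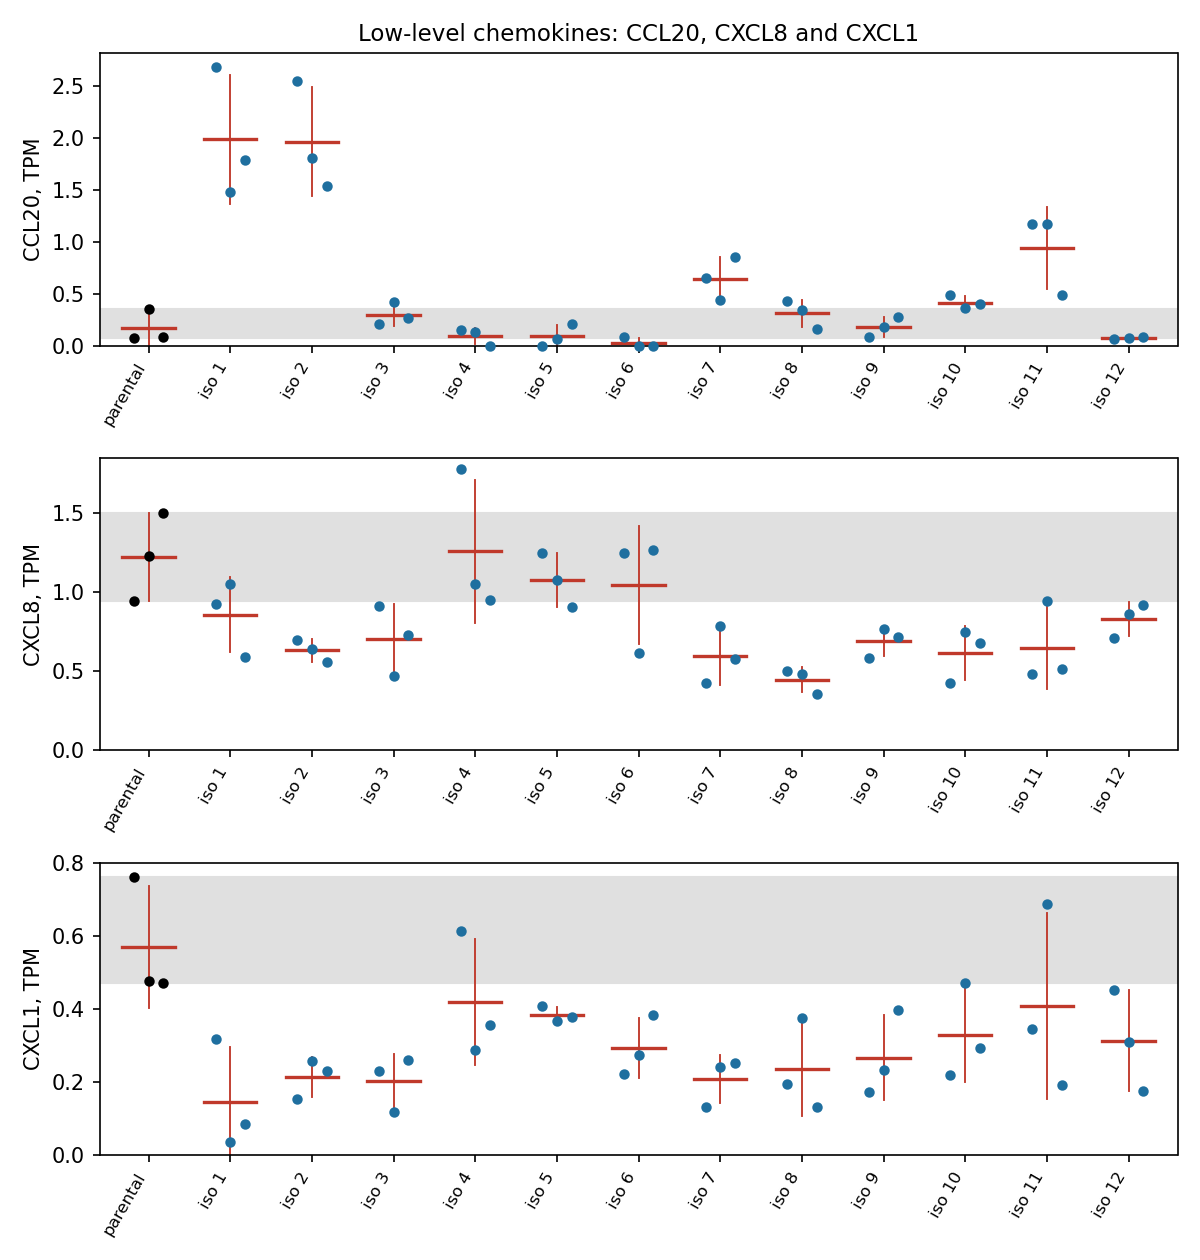
TPM of CCL20, CXCL8 and CXCL1 in the 3 libraries of each group (points), with mean (red line), SD (red bar) and parental range (grey band). CCL20 exceeds the band in isoforms 1, 2, 7, 10 and 11, while CXCL8 is under its band in 7 lines and CXCL1 in 9.

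CXCL16 was the one well-expressed chemokine. It stood at 50.9, 52.8 and 52.4 TPM in parental cells. In the isoform 1 line it was 37.7, 37.4 and 36.3 TPM (log2 difference -0.48 ± 0.0597), and in the isoform 2 line 36.1, 40.8 and 38.3 TPM (-0.43 ± 0.0597). These 2 lines lay clearly under the other 11 groups, whose means ran from 47.9 to 55.9 TPM. Isoforms 10 and 12 were also entirely below parental cells by small margins, isoform 6 was entirely above at 52.9, 56.4 and 58.4 TPM, and 7 lines overlapped. The library numbered 1 held the lowest CXCL16 in 10 of 13 groups. Compared by the numbers in the column names, 5 lines were below parental cells in all 3 pairs, with isoform 7 among them, and 3 lines were above. Isoform 1 shifted the median log2 difference over the tested genes to -0.107, and isoform 2 to -0.09. With libraries scaled by the median of ratios, which takes those medians to -0.014 and -0.016, CXCL16 was -0.37 and -0.35 in the same lines. CXCL16 overlaps MED11 on the other strand, and 6.74% of its 31-base words occur in another gene. ADAM10 and ADAM17, the proteases that release CXCL16 from the membrane, were not called by limma in any line, with log2 differences of -0.29 to 0.04. Of their 24 pairs of gene and line, 12 had a limma p under 0.05 both unadjusted and adjusted, short of the log2 difference of 1.

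TNFAIP3, the ubiquitin-editing inhibitor A20, was below the parental range in all 12 lines. Parental libraries had 5.51, 6.24 and 5.63 TPM. The isoform 2 line had 2.75, 2.94 and 2.58 TPM, with a log2 difference of -0.85 ± 0.0782, and the isoform 8 line had 2.57, 2.93 and 2.92 TPM (-0.84). These were the lowest groups and overlapped each other. Nearest to parental cells was isoform 4 at 5.18, 5.08 and 4.98 TPM (-0.16), separate from both the parental libraries and the next group. Isoform 5 had 4.39, 4.02 and 4.53 TPM (-0.35) and isoform 6 had 3.99, 4.03 and 4.15 TPM (-0.42). The other 7 lines had means of 3.40 to 4.04 TPM. No line reached the log2 difference of 1 that a call needs on the log2(TPM + 1) scale. With a pseudocount of 0.1 in place of 1, isoforms 2 (-1.04) and 8 (-1.02) passed it. All 12 differences stayed negative with median-of-ratios scaling, from -0.83 in isoform 8 to -0.13 in isoform 4. Among lines with and without the F-domain insertion, TNFAIP3 was lower with it by 1.23-fold in isoform 2 against 1, 1.18-fold in 5 against 4 and 1.23-fold in 8 against 7, with no overlap, while 11 and 10 overlapped.

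NFKBIA, the IkB protein that NF-kB itself induces, was abundant and moved little. Parental libraries had 46.2, 42.4 and 45.9 TPM. The lowest group was isoform 7 with 34.5, 30.6 and 30.8 TPM (-0.48 ± 0.0708), followed by isoform 9 with 32.7, 30.2 and 34.9 TPM (-0.45). Isoforms 3, 7, 8, 9, 10 and 11 were entirely below parental cells, and the other 6 lines overlapped them. The library numbered 2 held the lowest NFKBIA in 11 of 13 groups, parental cells included. Compared by the numbers in the column names, isoforms 1, 5, 6 and 12, which overlapped, were below parental cells in all 3 pairs. The differences of -0.08 in isoform 1, -0.06 in isoform 2 and -0.02 in isoform 4 turned to 0.02, 0.02 and 0.01 with median-of-ratios scaling. The ICAM1 extremes, isoforms 2, 4 and 5, all overlapped parental cells in NFKBIA, with means of 43.1, 44.1 and 42.5 TPM against 44.9 TPM.

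BIRC3, also known as cIAP2, was low and nearly flat. Parental libraries had 1.2, 1.47 and 1.22 TPM. Group means of the lines ran from 0.918 TPM in isoform 9 to 1.40 TPM in isoform 5, and 10 of 12 lines overlapped the parental group. Isoform 9, at 0.941, 0.853 and 0.961 TPM, and isoform 7, at 0.848, 0.95 and 1.13 TPM, lay below it. The library numbered 1 held the lowest BIRC3 in 10 of 13 groups. Compared by the numbers in the column names, isoforms 3 and 11, which overlapped, were below parental cells in all 3 pairs.

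**Figure D4:**
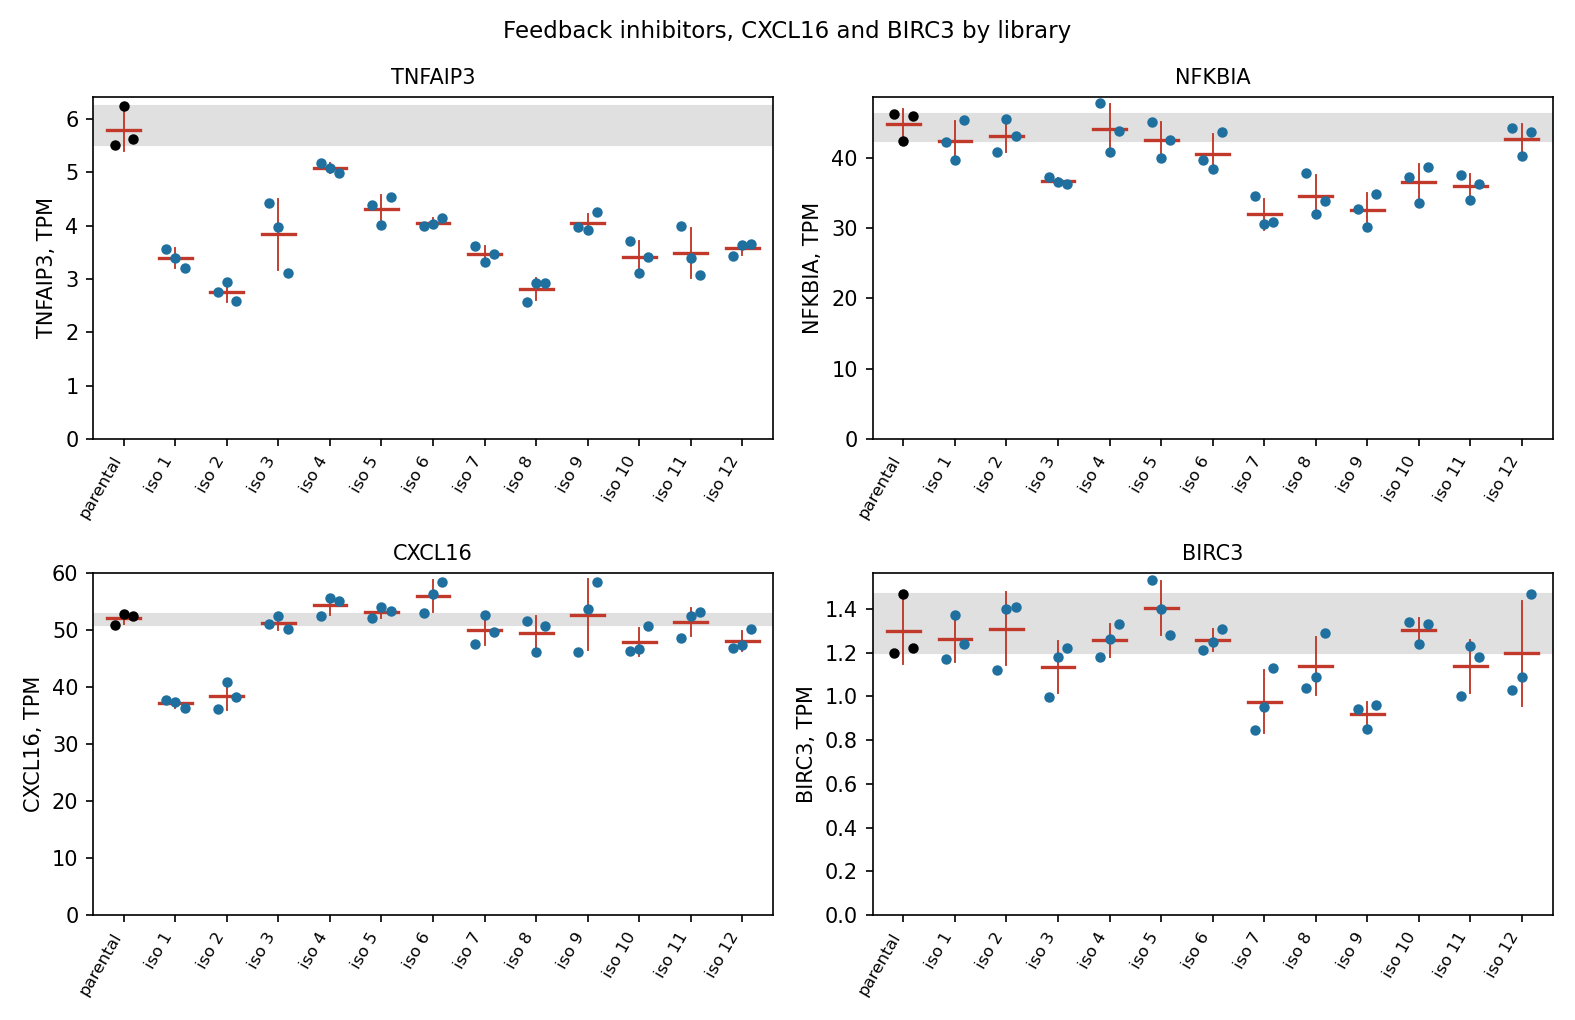
TPM of TNFAIP3, NFKBIA, CXCL16 and BIRC3 in the 3 libraries of each group (points), with mean (red line), SD (red bar) and parental range (grey band). All 36 line libraries are under the band for TNFAIP3, 6 lines are under it for NFKBIA, isoforms 1 and 2 stand apart for CXCL16, and 10 lines overlap it for BIRC3.

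Counting the 5 tested genes over 12 lines, all 3 line libraries were below all 3 parental ones in 34 of 60 pairs and above in 2. Over all tested genes 26.1% of pairs were entirely below and 19.0% entirely above. Across the 13 group means of log2(TPM + 1), Pearson's r of ICAM1 was 0.49 with TNFAIP3, 0.30 with CXCL16, -0.11 with NFKBIA and -0.34 with BIRC3. It was -0.19 with HNF4A. NFKBIA and BIRC3 had an r of 0.82. These 13 points share 1 cell line and 1 way of scaling, each is a mean of 3 libraries, and the values are descriptions. Among the lines, isoform 4 was the highest and isoform 2 the lowest for both ICAM1 and TNFAIP3, although TNFAIP3 in isoform 4 was under the parental range. For TNFAIP3, isoforms 2 and 8 overlapped (means of 2.76 and 2.81 TPM), and isoform 8 was the lowest with median-of-ratios scaling. The lowest line was isoform 7 for NFKBIA and isoform 9 for BIRC3.

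Among 1873 tested genes whose group means spanned at least 1 on the log2 scale, the closest to ICAM1 over the 13 group means were TRC-GCA22-1 (r = 0.801), KLHL35 (0.751), SNORD95 (0.729), RUNX1 (0.718) and LOC105377276 (0.708). As they were picked for this likeness, their values are a description with no test. KLHL35 stood at 12.4, 14.3 and 16.2 TPM in the isoform 4 line and at 4.75, 4.67 and 5.64 TPM in parental cells. RUNX1, a transcription factor of blood and epithelium, stood at 1.33, 1.15 and 0.804 TPM in isoform 2 and at 3.43, 3.28 and 3.15 TPM in parental cells. The tRNA gene and the small nucleolar RNA among the 5 are short transcripts with wide spread in these poly(A)-selected libraries.

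For CXCL8 the 5 closest were LOC105378482 (r = 0.925), PTAFR (0.908), GPSM3 (0.901), ANXA1 (0.869) and YEATS4 (0.866). They too were picked for likeness and are given with no test. PTAFR, the receptor for platelet-activating factor, stood at 6.74, 6.76 and 6.51 TPM in parental cells and at 1.42, 1.6 and 1.46 TPM in isoform 8, the line with the lowest CXCL8. ANXA1, annexin A1, stood at 232, 237 and 237 TPM in parental cells and at 71.3, 66.9 and 68.3 TPM in isoform 8.

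The machinery around these genes was read from lists of 167 other genes of the pathway. These lists, too, were written with earlier results of these data known, so their calls describe these libraries and are no independent support. Of the listed genes 100 were tested, and 13 were called higher and 5 lower in at least 1 line. Of all 15003 tested genes, 3.6% were called higher and 3.18% lower in at least 1 line, 6.57% in either direction, which is the background for each list count below. Over 1200 pairs of gene and line there were 52 calls higher and 11 lower, 5.25% of pairs, beside 1.51% over all tested genes. The median log2 difference of the listed genes was -0.01, beside -0.027 for all genes. Calls per line were 13 for isoform 1 (4.52% of all tested genes called), 11 for isoform 2 (3.73%), 4 for isoform 3 (0.807%), 2 for isoform 4 (0.54%), 1 for isoform 5 (0.293%) and 1 for isoform 6 (0.247%). They were 8 for isoform 7 (2.08%), 4 for isoform 8 (1.41%), 4 for isoform 9 (0.827%), 6 for isoform 10 (1.44%), 6 for isoform 11 (1.7%) and 3 for isoform 12 (0.573%).

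None of the 5 NF-kB subunit genes was called by limma, with 23 of 60 pairs of gene and line at an unadjusted p under 0.05 and 16 at an adjusted one. RELA, the main activating subunit, ranged from 57.9 to 64.3 TPM in the lines against 63.0 TPM in parental cells, with no limma adjusted p under 0.05 and 2 of 12 unadjusted ones. RELB, of the non-canonical arm, was lower at an adjusted p under 0.05 in 7 lines, most in isoform 2 with 13.4, 14.7 and 12.7 TPM against 25.4, 27.2 and 22.2 TPM (log2 difference -0.83 ± 0.0954, limma adjusted p = 1.37e-08). NFKB2, its partner, was lower in 6 lines, to 36.9, 36.1 and 36.1 TPM in isoform 2 from 51.5, 52.5 and 51.1 TPM (-0.50 ± 0.0557, limma adjusted p = 8.72e-09). All RELB differences and those of NFKB2 in these lines kept their sign with median-of-ratios scaling.

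Upstream, 27 kinases and adaptors were tested and 2 were called, both higher. IRAK2, a kinase of the interleukin-1 and Toll-like receptor complexes, rose in 9 lines, all but the exon 1B lines. It went from 3.05, 4.03 and 3.51 TPM in parental cells to 30.0, 27.2 and 30.2 TPM in isoform 1 (2.74 ± 0.127, limma adjusted p = 2.23e-17). In the isoform 4, 5 and 6 lines it had means of 4.45, 3.74 and 3.26 TPM. BIRC2, the paralog and chromosomal neighbour of BIRC3, was called higher in isoforms 1 and 2. It went from 23.3, 26.8 and 25.0 TPM to 57.8, 59.9 and 64.0 TPM in isoform 1 (1.24 ± 0.102, limma adjusted p = 1.05e-11). In all 12 lines every BIRC2 library was above every parental one, and 11 lines had a limma adjusted p under 0.05. Without isoform 3 replicate 1 it passed in isoform 3 as well (1.04). BIRC3 in isoforms 1 and 2 differed from parental cells by -0.02 and 0.01. Of 21 listed receptors, 8 averaged under 1 TPM and were not tested. TLR2 was among these, with a mean of 0.0376 TPM in parental cells and 1.38 TPM in isoform 10. Of the 13 tested receptors, TNFRSF1A was called, higher in isoform 7. Of 17 listed cytokine ligands, 13 averaged under 1 TPM and were not tested. Among them TNF reached at most 0.0451 TPM, IL1B 0.0598, IL18 0.77 and LTB, a ligand of LTBR, 1.13 TPM in any library. Of the 4 tested ligands, TNFSF9 (35.2 TPM in parental cells), LIF (4.85 TPM) and CSF1 (1.59 TPM) were not called in any line. IL32, a cytokine, was called higher in 9 lines, with a mean of 139 TPM in isoform 1 against 0.424 TPM (6.62 ± 0.154, limma adjusted p = 1.78e-24). In isoforms 4 and 5 IL32 was above every parental library but short of a call. It passed in isoform 4 as well when 1 library of that line was left out (1.03).

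Among the 9 tested brakes other than the members, IER3 was called, lower in isoform 10. Among the 5 other IkB genes, BCL3 was called, higher in isoform 1. None of the 20 other chemokines passed the minimum, and the CXCL neighbours on chromosome 4 were at or near 0, with CXCL5 at most 0.0408 TPM and CXCL6 at most 0.0272 TPM. The chemokine receptors CXCR2, CXCR6 and CCR6 reached at most 0.145, 0.167 and 0.485 TPM. CXCR3 had a mean of 0.00448 TPM in parental cells and 0.853 TPM in isoform 1, and was not tested. CXCR4, at 2.69 TPM in parental cells, was tested and not called in any line.

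CD58, an adhesion ligand of the T-cell receptor CD2 and like ICAM1 a member of the immunoglobulin superfamily, was called higher in 10 lines. It went from 6.11, 6.6 and 6.34 TPM in parental cells to 51.8, 48.9 and 51.4 TPM in isoform 1 (2.81 ± 0.13, limma adjusted p = 1.97e-17). In the isoform 2 line, where ICAM1 was lowest, CD58 was 48.5, 51.1 and 52.2 TPM. In isoforms 5 and 6 it was above parental cells but short of a call, at means of 11.9 and 9.36 TPM. VCAM1 was at most 0.0269 TPM.

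Of 17 other tested NF-kB response genes, 3 were called higher and 3 lower. TNFAIP2, a TNF-induced gene, was called lower in isoforms 1, 7, 9 and 11. The largest fall was in isoform 7, from 22.5, 22.5 and 21.7 TPM to 7.83, 7.95 and 7.89 TPM (-1.39 ± 0.0687, limma adjusted p = 3.73e-16). In 9 lines TNFAIP2 was entirely below parental cells at a limma adjusted p under 0.05, isoform 2 among them (-0.84). It was entirely above them in isoform 4 (0.15). In isoform 8 it passed without parental replicate 3 (-1.01) or without replicate 2 of that line (-1.02). PLAU, the urokinase gene, was called lower in the 3 exon 1B lines. It went to 31.6, 32.6 and 27.3 TPM in isoform 5 from 77.5, 93.9 and 87.1 TPM (-1.47 ± 0.0771, limma adjusted p = 1.67e-14). PLAU was lower at a limma adjusted p under 0.05 in 10 lines, isoform 10 among them (-0.81). In isoforms 1 and 2 every library was above every parental one, by 0.19 and 0.59 on the log2 scale. IRF1 was called lower in isoforms 1 and 2. CEBPD, an inflammatory transcription factor, was called higher in isoforms 1, 7, 10 and 11. It had 46.0, 40.3 and 43.6 TPM in isoform 11 against 15.9, 17.0 and 16.2 TPM (1.35 ± 0.102, limma adjusted p = 7.89e-12). In 9 lines every CEBPD library was above every parental one. Its call in isoform 1 was lost without replicate 1 of that line (0.97). PLAUR and GADD45B were the other genes called higher.

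The immediate-early AP-1 genes, whose products bind beside NF-kB at many inflammatory promoters, had 4 of 10 members called higher and 1 lower. JUN was called higher in 7 lines, most in isoform 1 from 16.1, 19.5 and 17.5 TPM to 110, 81.4 and 98.1 TPM (2.38 ± 0.102, limma adjusted p = 3.54e-18). In isoforms 9 and 12 JUN was above every parental library but short of a call. FOS was called higher in isoforms 1, 2 and 7, at 21.4, 16.3 and 14.6 TPM in isoform 1 against 5.22, 5.78 and 4.34 TPM (1.58 ± 0.146, limma adjusted p = 1.3e-10). In isoforms 4, 8, 10 and 11 FOS was above every parental library but short of a call. FOSL2 and ATF3 were the others called higher, and FOSB was called lower in isoform 2. In the exon 1B lines JUN overlapped the parental libraries.

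**Figure D5:**
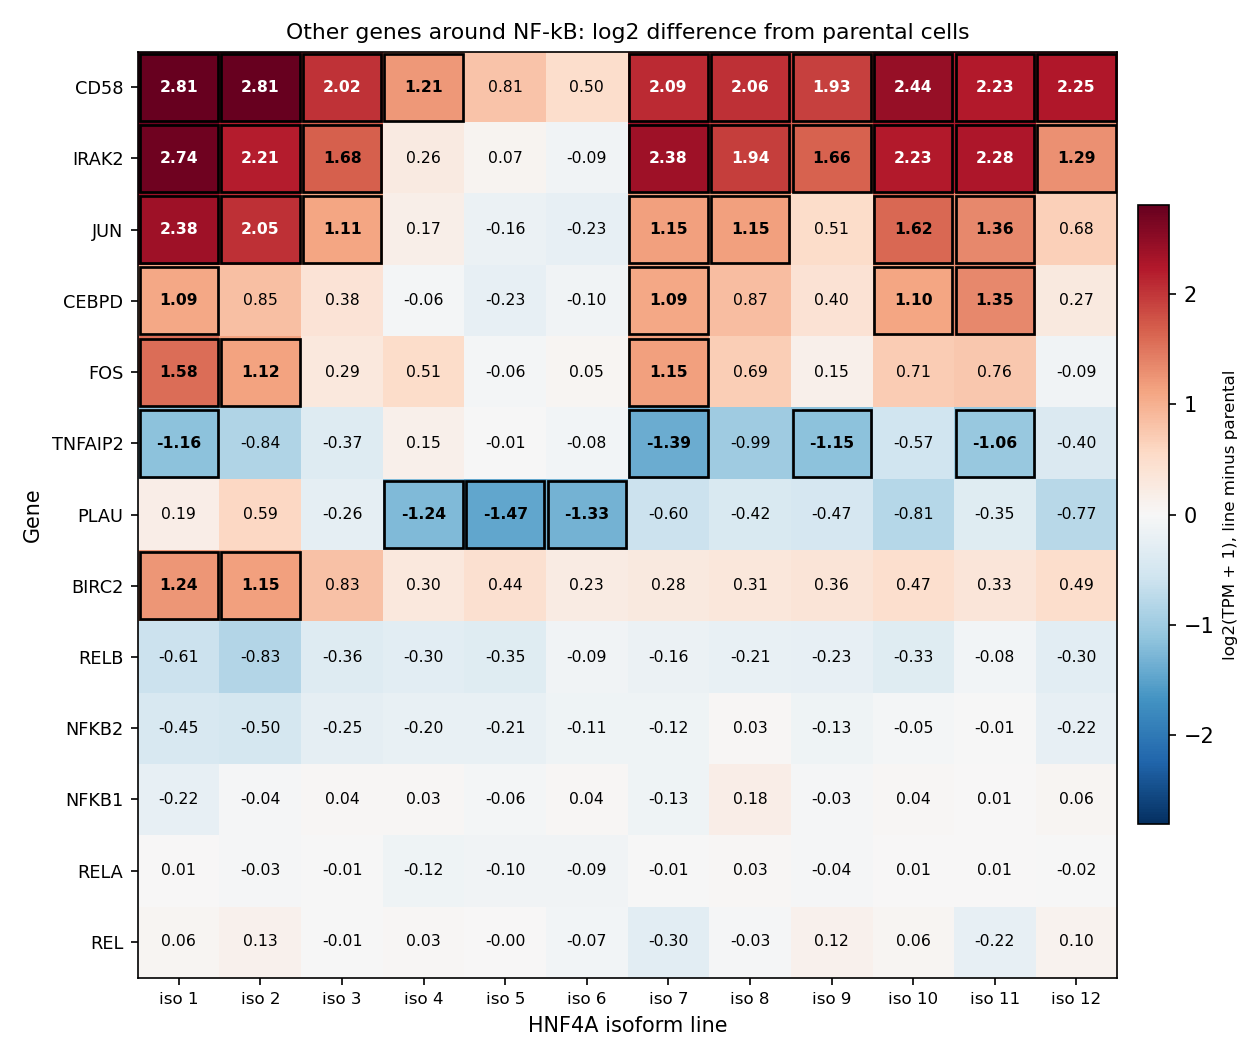
Log2 difference of each line from parental cells, on the log2(TPM + 1) scale, for 13 other genes around NF-kB (rows) and 12 lines (columns), with called values boxed. CD58, IRAK2 and JUN are boxed in 10, 9 and 7 lines, PLAU in isoforms 4 to 6, and the 5 subunit genes at the bottom in none.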

How the data were processed

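The deposited files were 13 tables of 45446 rows, 1 per group. The authors deposited TPM per gene and library, which summed to 999972.6 to 999987.7 per library, so only relative levels are known. The 12 line tables add, by the authors and per the file headers, a signal (mean normalised counts), log2 fold changes with standard errors, a test score and p-values. Only the authors' mean counts and log2 fold changes are quoted. Trimmomatic 0.36, FastQC 0.11.5, kallisto 0.44.0, DESeq2 1.22.2 and GRCh38.p12 are named in the submitters' processing notes. The annotation, and how transcripts were summed to genes, is not given in the sources used here. Summing 12 HNF4A rows left 45435 rows. Summed mean counts per table were 50609338 to 56136330.

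Libraries were grouped by their labels. The titles number the libraries of isoforms 4 and 5 as well, but repeat 1 bracketed tag within each line, so their columns were assigned to the line and not to a numbered library. limma 3.58.1 (R 4.3.3; lmFit, eBayes with trend) was fitted on log2(TPM + 1) for 15003 genes averaging 1 TPM or more, over all 39 libraries with 13 coefficients and 26 residual degrees of freedom. p-values were adjusted by Benjamini-Hochberg within each comparison. For genes under the minimum, the differences come from a fit without it. The code was tested on simulated data. Alternatives were a pseudocount of 0.1, no minimum, a minimum of 5 TPM, median-of-ratios scaling, a fit of each line with parental libraries alone, the replicate number as a block (also, added after seeing the data, with the numbers in the column names of isoforms 4 and 5), and leaving out each library.

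The 10 genes and all lists were chosen with earlier results of these data known. Beside the 10 genes, the text names pathway genes called in the same direction in at least 3 lines, the NF-kB subunits, the 5 genes most correlated with ICAM1 and with CXCL8, and listed neighbours. Other genes named with a single value or call, and the flanks of ICAM1, were chosen after their values were seen. Positions are from GENCODE on GRCh38 and promoters from RefSeq on GRCh38.p14. The starts in these sources can differ, as for ICAM1 and CCL20, and motif positions are counted from the RefSeq start.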

Additional observations from a re-analysis of the deposited data

Results flagged for a closer look

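ICAM1 is singled out because lines moved it in opposite directions from the same parental libraries. In the isoform 4 line every library was above every parental one, at a log2 difference of 1.22, and in the isoform 2 line every library was below, at -2.41. The difference between these lines was not tested. It cannot be told apart from a difference between the stable lines themselves, since each isoform was 1 line.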

How the results depend on the processing

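Depth is unknown from TPM, and 5 of the 10 genes lay under 1 TPM in the mean, which limits what can be said of them. With a pseudocount of 0.1 the calls of the members went from 5 to 8 lower (ICAM1 in isoform 10, at -1.07, and TNFAIP3 in isoforms 2 and 8), those of the other pathway genes from 11 to 23 lower, and the count in isoform 5 from 1 to 2. Without a minimum, member calls went from 1 to 3 higher through CCL20. With a minimum of 5 TPM they went to 0 higher and 0 lower, as ICAM1 averaged 4.11 TPM and was not tested. Leaving out 1 library at a time gave 1 to 1 member calls higher and 5 to 5 lower, and 51 to 53 and 10 to 14 for the other genes. No called value changed sign. Same-numbered libraries of different groups correlated with a median of 0.054 (-0.175 to 0.232) in their deviations, against -0.029 for different numbers, and 29 of 33 libraries correlated best, in the mean, with their own number. This is a hint of a shared effect from the data and not from the design, since the labels give no shared day or batch. With the replicate block over the 10 lines whose columns match a numbered title (33 libraries), member calls were 0 higher and 4 lower and those of the other genes 51 and 9, as without it. With the column numbers taken for isoforms 4 and 5 as well (39 libraries, 36 of which correlated best with their own number), a choice made after seeing the data, the calls were 1 and 5 for the members and 52 and 11 for the others, again as without the block.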
